A study of Mus musculus with 6 samples.

Results

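The MHC class II presentation genes were followed in the bone marrow of anemic mice 6 h after an injection of erythropoietin. They are 9 genes chosen by name: the classical chain genes H2-Aa, H2-Ab1 and H2-Eb1, the peptide-exchange genes H2-DMa and H2-DMb1, their modulators H2-Oa and H2-Ob, the invariant chain gene Cd74 and the transactivator gene Ciita. Probes were assigned through the accession that the scanner files give for each probe, matched to RefSeq. In this way 12 of 41174 probes were found for 8 of the 9 genes, and no probe was assigned to H2-Eb1. All 12 probes were well above background on all 6 arrays, so none was lost to the filter that left 19590 probes and 14853 genes for testing.

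The tested group was made of 3 samples taken 6 h after recombinant human erythropoietin (rHuEPO) at 3000 U/kg, given into the peritoneal cavity. The control group was made of 2 samples taken 6 h after phosphate-buffered saline (PBS) and 1 untreated sample. All samples came from the femurs of 10-week-old male ISAM mice of genotype Epo-/-::3.3K-Epo3'-Tg458, labelled as of mixed strain. These mice lack the endogenous Epo gene, carry an Epo transgene and are a model of anemia from erythropoietin deficiency, so the controls were anemic too and no wild-type marrow was included. The labels number replicates without naming separate animals, and p-values therefore measure only the spread between these samples, which may be technical.

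Class II molecules are pairs of an alpha and a beta chain that hold peptides from endocytosed proteins on the surface of B cells, dendritic cells and macrophages, where CD4+ T cells read them. The invariant chain CD74 blocks the groove until proteases cut it down to a short peptide, H2-DM then exchanges that peptide for antigen, and H2-DO, made from H2-Oa and H2-Ob, restrains H2-DM in B cells. CIITA does not bind DNA itself but is recruited by the factors that sit on the X and Y boxes of class II promoters, and it sets how strongly these genes are transcribed.

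The X and Y boxes are shown because the factors that recruit CIITA sit on them in class II promoters. The RefSeq promoter table (GRCm38.p6, 250 bases before to 50 after a gene's start) held windows for 6 of the 9 genes. In 5 of them the letters GNAAC, taken for the core of the X box, were followed on the gene's strand by GATTGG, taken for the core of the Y box and holding a reversed CCAAT, with the starts 29 to 32 bases apart. The stretches read 5′ to 3′ on the gene's strand, with both cores in capitals.
H2-Aa (chr17:34287863-34287912, minus strand): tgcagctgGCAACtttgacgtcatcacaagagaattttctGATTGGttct
H2-Eb1 (chr17:34305768-34305816, plus strand): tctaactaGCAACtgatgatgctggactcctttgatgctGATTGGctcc
H2-DMb1 (chr17:34153089-34153138, plus strand): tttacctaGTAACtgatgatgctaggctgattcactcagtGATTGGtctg
H2-Oa (chr17:34092295-34092344, plus strand): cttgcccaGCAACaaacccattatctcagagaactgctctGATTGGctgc
H2-Ob (chr17:34238810-34238856, plus strand): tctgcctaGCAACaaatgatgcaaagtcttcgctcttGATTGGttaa
Among all 32851 windows, 0.597% held such a pair on the gene's strand, with starts 20 to 40 bases apart, and 1.21% on either strand. On either strand GNAAC alone was in 84.8% and GATTGG alone in 16.1%. H2-DMa had 2 windows and neither held the pair. These letter patterns were chosen after the windows had been read, and a match describes the letters only.

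The 75th percentile signals of the arrays lay between 220.7 and 264.0, and correlations between arrays ranged from 0.964 to 0.991. The share of gene spots well above background was 46.2% to 46.6% on rHuEPO arrays and 48.6% to 50.5% on control arrays. Negative control spots had a median signal of 4.73 to 5.51 on rHuEPO arrays and 3.74 to 4.03 on control arrays, so that both measures separated the groups; their part in the differences was not tested. Slide 1 held rHuEPO replicate 1 and the untreated sample, and slide 2 held the other 4 arrays. Slide and scan fell together. All 9 neutrophil and 10 erythroid markers were well above background on all 6 arrays, as the marrow label would have it. Levels below are the log2 of a probe's processed signal relative to the 75th percentile of its array, so 0 is that percentile, and they compare arrays within a probe, not genes with each other.

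No class II gene passed the test of rHuEPO against control. The limma fit over all genes called 0 of the 8 measured members at a Benjamini-Hochberg adjusted p under 0.05, and 0 had an unadjusted p under that value, beside 0.0673% of all genes called and 4.96% with such an unadjusted p. The lowest adjusted p among the members was 1.00, and the lowest unadjusted p was 0.172. The median difference, rHuEPO minus control, was 0.29 over the 8 members and -0.015 over all genes, and 7 of the 8 members lay above 0 beside 47.3% of all genes. In no member were the rHuEPO arrays fully above or below the controls, beside 10.4% of all genes. Without PBS replicate 1 the member median was 0.031. Within slide 1, which held no PBS array, it was 0.23, beside 0.0048 over all genes (1 array on each side, no test).

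**Figure D1:**
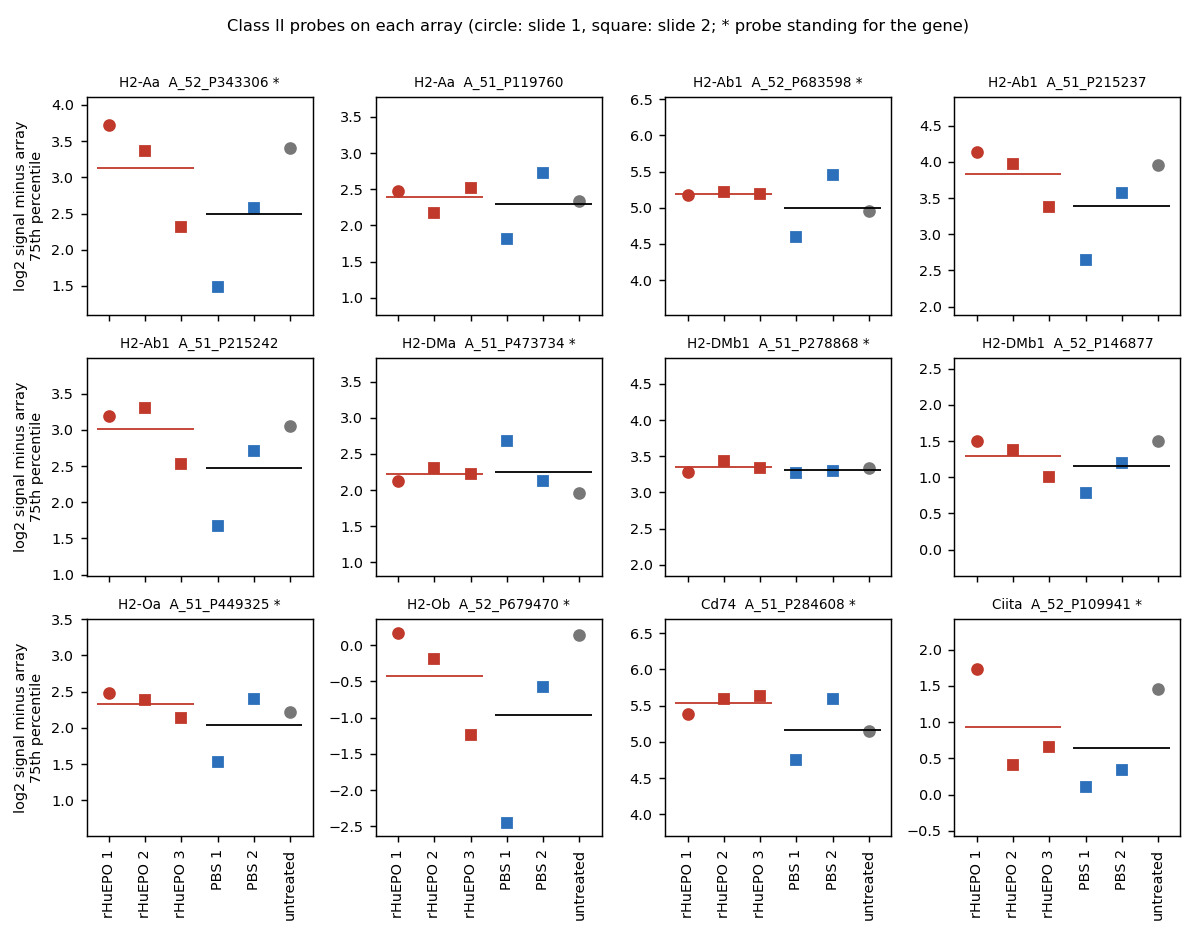
Each panel shows 1 of the 12 class II probes, with log2 signal minus the array's 75th percentile on the y axis (3 log2 units in every panel) and the 6 arrays on the x axis. Short lines are group means of 3 rHuEPO (red) and 3 control arrays (PBS blue, untreated grey), circles are slide 1 and squares slide 2; PBS replicate 1 is the lowest point in 11 of the 12 panels.

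H2-Aa encodes the alpha chain of the I-A molecule. Its brighter probe, A_52_P343306, read 3.72, 3.37 and 2.31 on rHuEPO replicates 1, 2 and 3, against 1.49 and 2.58 on PBS replicates 1 and 2 and 3.40 on the untreated array. The groups overlapped, with the untreated array above rHuEPO replicates 2 and 3. The difference was 0.64 ± 0.54 (SE, 3 against 3 arrays; limma adjusted p = 1.00), a fold of 1.56 with a 95% interval of 0.649 to 3.75, and it was 0.14 ± 0.48 without PBS replicate 1. Its second probe, A_51_P119760, spread far less, with 2.48, 2.18 and 2.52 on the rHuEPO arrays, against 1.81 and 2.72 on the PBS arrays and 2.33 on the untreated array, and a difference of 0.10 ± 0.26.

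H2-Ab1 encodes the I-A beta chain and had 3 probes. The brightest, A_52_P683598, read 5.18, 5.22 and 5.19 on rHuEPO arrays 1 to 3, against 4.60 and 5.45 on the PBS arrays and 4.96 on the untreated array. The rHuEPO arrays were nearly equal and lay inside the range of the controls. The difference was 0.19 ± 0.24 (limma adjusted p = 1.00), a fold of 1.14 with an interval of 0.777 to 1.68, and it was -0.0066 without PBS replicate 1.

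The other H2-Ab1 probes varied more. A_51_P215237 read 4.14, 3.97 and 3.38 on the rHuEPO arrays, against 2.64 and 3.57 on the PBS arrays and 3.96 on the untreated array. This probe was printed at 10 spots per array, and within an array its spots had an SD of 0.028 to 0.074. A_51_P215242 read 3.19, 3.30 and 2.53 on the rHuEPO arrays, against 1.67 and 2.70 on the PBS arrays and 3.05 on the untreated array. The differences were 0.44 ± 0.37 and 0.53 ± 0.39, neither past the test over all 19590 probes, of which 0.0562% were called.

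Cd74 encodes the invariant chain. It read 5.39, 5.59 and 5.63 on the rHuEPO arrays, against 4.75 and 5.60 on the PBS arrays and 5.16 on the untreated array. All 3 rHuEPO arrays lay above the untreated array and PBS replicate 1, while PBS replicate 2 was as high. The difference was 0.37 ± 0.24 (limma adjusted p = 1.00), a fold of 1.29 with an interval of 0.870 to 1.91, and it was 0.16 ± 0.21 without PBS replicate 1.

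H2-DMa and H2-DMb1 encode the chains of the peptide exchanger. H2-DMa read 2.13, 2.30 and 2.23 on the rHuEPO arrays, against 2.68 and 2.13 on the PBS arrays and 1.96 on the untreated array. It was the 1 member of 8 highest on PBS replicate 1, beside 25.7% of all genes, while the other 7 were lowest on that array. Its difference was -0.035 ± 0.23 (limma adjusted p = 1.00), and 0.18 ± 0.17 without that array. H2-DMb1 was the steadiest member. Its brighter probe read 3.28, 3.43 and 3.33 on the rHuEPO arrays, against 3.27 and 3.30 on the PBS arrays and 3.34 on the untreated array. The whole range was 0.16, and the difference of 0.046 ± 0.16 had an interval of 0.801- to 1.33-fold, the narrowest of the 8 members. Its dimmer probe, A_52_P146877, read 1.50, 1.37 and 1.01 on the rHuEPO arrays, against 0.78 and 1.20 on the PBS arrays and 1.51 on the untreated array, a difference of 0.13 ± 0.25.

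H2-Oa and H2-Ob encode the chains of H2-DO. H2-Oa read 2.47, 2.39 and 2.14 on the rHuEPO arrays, against 1.53 and 2.40 on the PBS arrays and 2.21 on the untreated array, a difference of 0.29 ± 0.26 that was 0.027 ± 0.19 without PBS replicate 1. H2-Ob read 0.17, -0.19 and -1.24 on the rHuEPO arrays, against -2.46 and -0.57 on the PBS arrays and 0.14 on the untreated array. It had the widest range of the 12 probes, 2.63, and the groups overlapped widely. The difference of 0.54 ± 0.67 (limma adjusted p = 1.00) had an interval of 0.487- to 4.35-fold, and it was -0.21 ± 0.46 without PBS replicate 1.

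Ciita, the transactivator, read 1.74, 0.41 and 0.66 on the rHuEPO arrays, against 0.11 and 0.34 on the PBS arrays and 1.46 on the untreated array. The arrays of slide 1 were high in both groups, and the other 4 lay together. The difference was 0.30 ± 0.46 (limma adjusted p = 1.00), a fold of 1.23 with an interval of 0.582 to 2.59. It was 0.27 within slide 1 and 0.31 within slide 2, and it was -0.10 without rHuEPO replicate 1 and 0.032 ± 0.51 without PBS replicate 1. With slide as a block its SE fell to 0.14, and the limma adjusted p of 0.495 was the lowest of the 8 members, beside 0.0741% of all genes called in that fit.

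**Figure D2:**
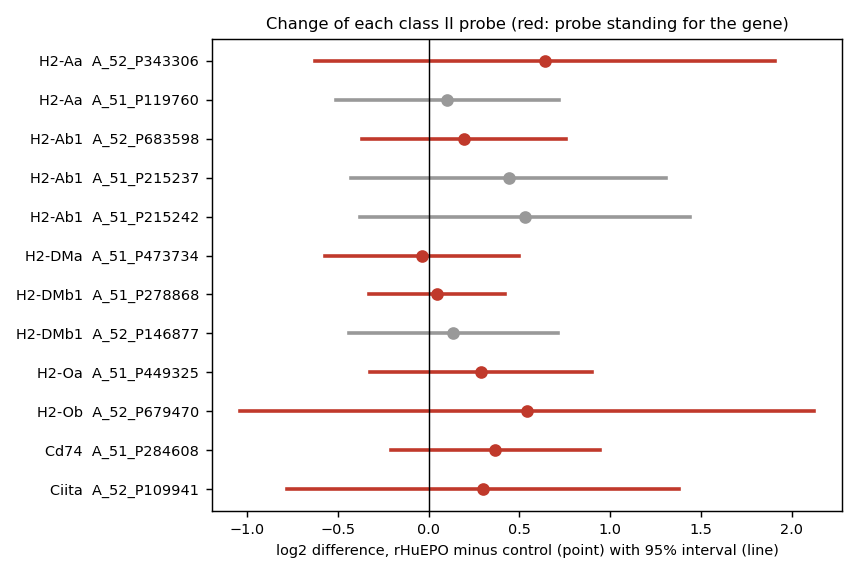
Points are the log2 differences, rHuEPO minus control, of the 12 class II probes, and lines their 95% intervals from the limma fit over all probes (3 against 3 arrays). Every interval crosses 0; that of the brighter H2-DMb1 probe is the narrowest and that of H2-Ob the widest.

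Set against PBS alone, again no member passed. The limma fit with 3 groups called 0 of 8 members, 0 with an unadjusted p under 0.05, beside 0.0202% of all genes. The differences, rHuEPO minus PBS, had a median of 0.37 over the members and -0.059 over all genes, and the largest were 1.10 ± 0.49 for H2-Aa and 1.09 ± 0.63 for H2-Ob. For untreated against PBS, which shares the PBS arrays, the fit called 0 of 8 members and 0 of all genes, and the largest differences were 1.66 ± 0.84 for H2-Ob, 1.37 ± 0.66 for H2-Aa and 1.24 ± 0.54 for Ciita (limma adjusted p = 0.676 for each, and no member under 0.05 unadjusted). Over all genes 804 had an unadjusted p under 0.05 in that comparison and 591 in rHuEPO against PBS. These H2-Aa differences are those of its brighter probe. Its second probe, A_51_P119760, had 0.12 ± 0.31 for rHuEPO minus PBS and 0.065 ± 0.42 for untreated minus PBS. The probes standing for H2-Aa, H2-Ob and Ciita were each lowest on PBS replicate 1, which is 1 of the 2 PBS arrays.

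Slide was followed further because Ciita tracked it. In the fit with group and slide, Ciita was at 1.60 on slide 1 and 0.38 on slide 2, a difference of 1.22 ± 0.15 (slide 1 minus slide 2; 2 and 4 arrays; limma adjusted p = 0.0269). It was the 1 member of 8 called, beside 10.6% of all genes. The difference was 1.06 to 1.28 under 6 other ways of processing. It stayed past the threshold under 4 of them, and missed it with normexp background correction and 75th percentile scaling (1.20; limma adjusted p = 0.994) and without the filter on dim probes (1.22; 0.0571). H2-Ob and H2-Aa had slide differences of 1.27 ± 0.57 and 1.12 ± 0.41 that did not pass, and those of Cd74, H2-Ab1 and H2-DMb1 were -0.12, -0.047 and -0.025. The untreated sample and slide 1 cannot be told apart among the controls, since no PBS array was on that slide.

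PBS replicate 1 stood apart, as was noticed after the values were seen. It was the lowest array for 11 of the 12 class II probes, beside 15.9% of all probes. PBS replicate 2 exceeded it by a median of 0.85 over the 8 members, from 1.88 for H2-Ob and 1.08 for H2-Aa to 0.23 for Ciita, 0.032 for H2-DMb1 and -0.55 for H2-DMa. A step of at least 0.5 in that direction was seen in 13.4% of all genes. The mean deviation of the members from their own means was 0.37, 0.17 and -0.11 on the rHuEPO arrays, against -0.64 and 0.014 on the PBS arrays and 0.19 on the untreated array. The class II signal summed over the members, in units of the 75th percentile signal, was 112.3 to 118.8 on rHuEPO arrays. On control arrays it was 74.2 to 119.6, with PBS replicate 1 lowest. Cd74 made up 35.7% to 44.2% of that sum. Without Cd74 the sum was 62.7 to 73.5 on rHuEPO arrays and 47.3 to 71.1 on control arrays. In whole marrow fewer cells of a type and less RNA per cell cannot be told apart.

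Marker lists of B cells, which carry class II, were low on that array too. All 14 mature B cell markers and all 7 tested precursor B cell markers were lowest on PBS replicate 1. Their summed signal was 87.9 to 104.0 on rHuEPO arrays and 46.5 to 160.7 on control arrays for mature B cells, and 188.6 to 218.8 against 134.6 to 367.7 for precursors. Such a sum adds different probes and leans on the brightest: Cd79b made up 47.4% to 55.7% of the first and Cd24a 41.0% to 75.8% of the second. Without Cd24a the precursor sum was 65.3 to 79.5 on rHuEPO arrays and 32.6 to 216.8 on control arrays, with PBS replicate 1 lowest. Among them Cd79b, which encodes a signalling chain of the B cell receptor, read 5.74, 5.38 and 5.78 on the rHuEPO arrays, against 4.53 and 6.48 on the PBS arrays and 5.92 on the untreated array. The B lineage lists were highest on PBS replicate 2 (mean deviations of 0.61 and 1.10), where the class II members stood near their mean. The part of B cell numbers in the class II values was not tested.

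The other marker lists did not all read alike on PBS replicate 1. PBS replicate 2 exceeded it by a median of 0.70 for erythroid and 0.66 for monocyte and macrophage markers. That step was 1.80 for mature and 2.65 for precursor B cell markers. It was 0.073 for dendritic cell, 0.025 for T and NK cell and -0.42 for neutrophil markers. Mean deviations were lowest on PBS replicate 1 for erythroid (-0.49) and dendritic cell markers (-0.21) too. Of 9 dendritic cell markers tested 3 were lowest there, and their summed signal was 35.0 to 38.8 on rHuEPO arrays and 30.4 to 36.6 on control arrays, of which Bst2 made up 69.7% to 74.3%. Zbtb46 and Cd209a were well above background on 2 and 1 of the 6 arrays and were not tested. Monocyte and macrophage markers were split, 5 of 11 lowest and 4 highest on PBS replicate 1. Ly6c2 made up 83.2% to 88.3% of their sum, and without it the sum was 55.6 to 68.9 on rHuEPO arrays and 46.3 to 64.2 on control arrays. Of the neutrophil markers 8 of 9 were highest there, with sums of 1790 to 2357 on rHuEPO arrays and 1851 to 2433 on control arrays, and of the erythroid markers 7 of 10 were lowest, with sums of 2084 to 2450 against 2096 to 2382. Of the T and NK cell markers 3 of 7 were lowest there, and their mean deviation was low on both PBS arrays (-0.19 and -0.17). Nkg7 made up 77.0% to 88.9% of their sum, which without it was 6.45 to 7.42 on rHuEPO arrays and 4.87 to 7.17 on control arrays, and Cd4 was well above background on none of the arrays. The limma fit of rHuEPO against control called 0 markers of any of these lists, with all arrays and without PBS replicate 1. The 1 marker with an unadjusted p under 0.05 was Tfrc, the transferrin receptor gene of erythroid precursors (0.97 ± 0.19; limma adjusted p = 0.427), which read 3.65, 3.76 and 3.82 on the rHuEPO arrays, against 2.54 and 3.06 on the PBS arrays and 2.74 on the untreated array. The median change was 0.36 for monocyte and macrophage markers, 0.32 for erythroid, 0.19 for T and NK cell, 0.068 for dendritic cell, 0.060 for mature B cell, 0.0064 for neutrophil and -0.35 for precursor B cell markers. Without PBS replicate 1 it was 0.37 for monocyte and macrophage markers, 0.13 for erythroid, 0.14 for T and NK cell, 0.011 for dendritic cell, -0.36 for mature B cell, 0.14 for neutrophil and -1.08 for precursor B cell markers. The rHuEPO arrays all lay above the controls for markers that included Tfrc, C1qa, Siglec1 and Cd8a, and for no marker all below, beside the 10.4% of all genes separated either way.

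**Figure D3:**
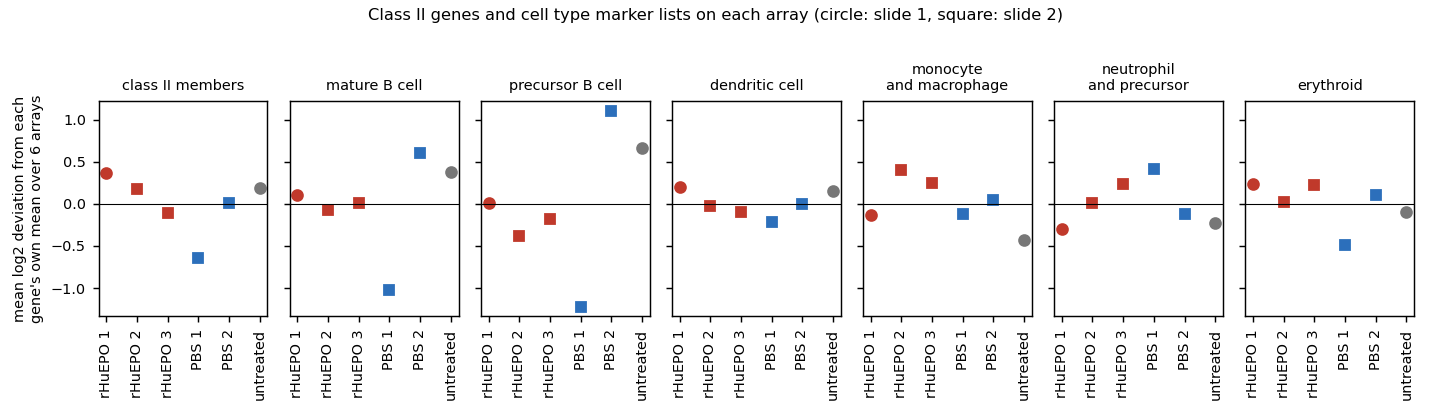
The y axis is the mean log2 deviation of a list's tested genes from their own means over the 6 arrays, and the x axis the arrays (rHuEPO red, PBS blue, untreated grey; circles slide 1, squares slide 2). Class II genes (-0.64) and both B lineage lists (-1.03 and -1.22) are lowest on PBS replicate 1. So are erythroid (-0.49) and dendritic cell markers (-0.21), while neutrophil markers are highest there (0.41).

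Probes of the same gene did not always move alike from array to array. For H2-Aa the brighter probe exceeded the other by 1.24, 1.19 and -0.22 on rHuEPO replicates 1, 2 and 3, against -0.32 and -0.15 on PBS replicates 1 and 2 and 1.07 on the untreated array. The arrays thus fell into rHuEPO replicates 1 and 2 with the untreated array on one side, and rHuEPO replicate 3 with both PBS arrays on the other, which is neither the treatment nor the slide. For H2-Ab1 the brightest probe exceeded A_51_P215237 by 1.04, 1.25 and 1.81 on the rHuEPO arrays, against 1.96 and 1.88 on the PBS arrays and 1.00 on the untreated array. The excess over A_51_P215242 was 1.99, 1.92 and 2.66 on the rHuEPO arrays, against 2.93 and 2.75 on the PBS arrays and 1.91 on the untreated array. Both H2-Ab1 pairs divided the arrays as the H2-Aa pair did, with the sign turned, but they share the brightest probe and are not independent. The division was noticed after the values were seen, and how many other probe pairs divide the arrays so was not counted.

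The H2-DMb1 pair ran more evenly, from 1.78 to 2.06 on those first 3 arrays and from 2.10 to 2.49 on the other 3. Such ranges were not rare on these arrays: over 4737 probe pairs the median range was 0.76, and 12.4% of pairs had a range at least as wide as that of H2-Aa (1.56), 36.1% and 32.2% at least as wide as those of H2-Ab1 (0.96 and 1.02). A ratio within an array shows unequal change of the probes and not which probe follows the transcript.

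**Figure D4:**
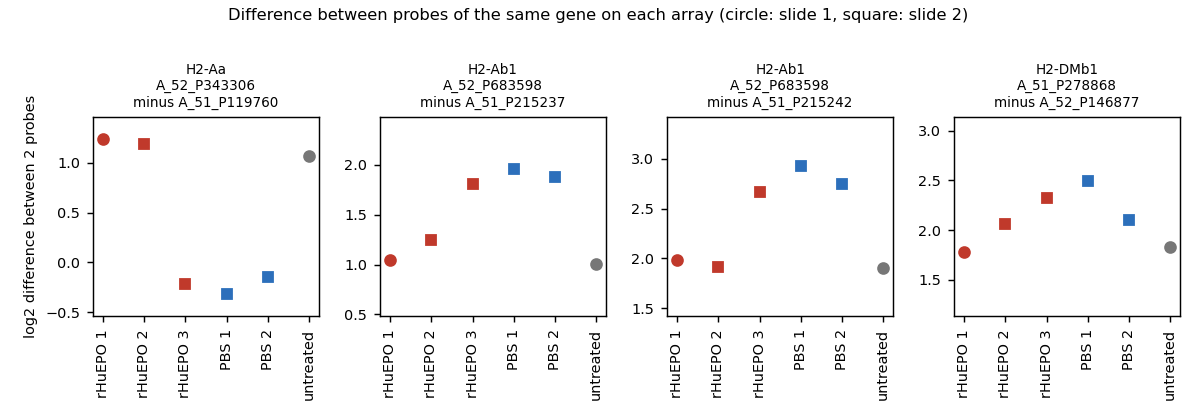
The y axis is the log2 difference between 2 probes of a gene on the same array (2 log2 units in every panel), and the x axis the arrays (rHuEPO red, PBS blue, untreated grey; circles slide 1, squares slide 2). For H2-Aa, rHuEPO replicates 1 and 2 and the untreated array lie at 1.07 to 1.24 and the other 3 at -0.32 to -0.15; the H2-Ab1 panels divide the same arrays in the opposite direction.

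The other genes of the presentation pathway were described from lists, and limma called 0 members of each in rHuEPO against control. Of 14 genes for processing and peptide loading 12 were tested, with a median change of 0.076 (0.21 without PBS replicate 1) and 7 above 0. The smallest unadjusted p belonged to Marchf8, a ubiquitin ligase (0.40 ± 0.22), Ctsl, the protease cathepsin L (0.27 ± 0.23), H2-DMb2, the second DM beta chain gene and a close copy of H2-DMb1 (0.35 ± 0.37), and Marchf1, the ligase that takes class II off the surface of B and dendritic cells (-0.16 ± 0.19). H2-DMb2 was lowest on PBS replicate 1 like most members, at -2.24 against -0.81 on PBS replicate 2. By contrast 7 of the 12 were highest on PBS replicate 1, as H2-DMa was, among them Ctss, cathepsin S, which trims the invariant chain (6.46 there and 5.59 to 6.03 on the other arrays), and Ifi30, the lysosomal thiol reductase (4.39 there and 3.16 to 3.98 elsewhere).

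Of 7 genes for the factors on the X and Y boxes 6 were tested, with a median change of -0.076 (-0.036 without PBS replicate 1) and 1 above 0. Creb1, which binds next to the X box, had -0.39 ± 0.20 and all 3 rHuEPO arrays below all controls (0.57, 0.82 and 0.75, against 1.39, 0.87 and 1.06), beside 10.4% of all genes separated in either direction. Rfxank, an RFX subunit, had -0.15 ± 0.22. The NF-Y subunit genes Nfya and Nfyc had -0.11 ± 0.19 and 0.17 ± 0.42. Nfyc differed by slide (1.08, slide 1 minus slide 2; limma adjusted p = 0.0275), beside the 10.6% of all genes; in the other lists so did Nlrc5, Psmb10 and Erap1 of the 15 class I genes, 3 of 11 monocyte and macrophage markers and 1 of 9 dendritic cell markers. Rfx5, the DNA-binding RFX subunit, was well above background on none of the 6 arrays.

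Of the interferon gamma pathway to Ciita all 10 genes were tested, with a median change of 0.059 and 6 above 0. The kinase gene Jak1 had 0.22 ± 0.19, the myeloid and B cell factor Irf8 0.19 ± 0.17, Irf2 -0.16 ± 0.16 and Irf1 -0.16 ± 0.18. For Irf8 all 3 rHuEPO arrays (4.85 to 4.89) lay narrowly above all controls (4.45 to 4.83), beside 10.4% of all genes separated either way. Of 7 costimulation genes 6 were tested, with a median of 0.019 (0.032 without PBS replicate 1) and 4 above 0, led by Cd274, which encodes PD-L1 (0.55 ± 0.34), then Cd86 (0.28 ± 0.22), Cd80 (-0.29 ± 0.28) and Cd40 (-0.10 ± 0.30). Of 16 MHC class I presentation genes 15 were tested, with a median of 0.042 (0.14 without PBS replicate 1) and 11 above 0. Tap2, a subunit of the peptide transporter, had 0.70 ± 0.30 and the 1 unadjusted p under 0.05 in the list (0.0495; limma adjusted p = 1.00), followed by Calr (0.18 ± 0.20), Erap1 (0.27 ± 0.36) and Psmb10 (0.25 ± 0.36). None of the 15 was lowest on PBS replicate 1 and 7 were highest.

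The genes whose profile over the 6 arrays was most like the mean profile of H2-Aa, H2-Ab1 and Cd74 were Brix1, Supv3l1, Slco2b1, Ncs1, Axl and Lta, of 10917 compared. Likeness was the root mean square difference of centred log2 values, 0.099 for Brix1 to 0.13 for Lta, with a median of 0.49 over the genes compared and 0.38 for a flat profile. That profile was 0.34, 0.30 and -0.043 on the rHuEPO arrays, against -0.81 and 0.12 on the PBS arrays and 0.084 on the untreated array, so these genes share above all a low reading on PBS replicate 1. With 6 arrays such likeness is a description only.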

How the data were processed

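Cy3-labelled total RNA was hybridised to 1-colour Agilent arrays, 1 per sample. Linear intensity per spot was deposited as scanner output; per the file headers it was extracted with Feature Extraction 10.7.3.1, and its processed signal is background-subtracted. The authors' value table holds log2 values of unstated scaling. Scanner values brought to a common 75th percentile, less the median of each probe, matched it (slopes 0.999 to 1.00, median absolute difference at most 0.013), which settles scale, centring and direction. Its column medians were 0.12, 0.011 and 0.087 for rHuEPO, -0.057 and -0.098 for PBS and -0.10 for the untreated array.

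Processed signals were divided by the 75th percentile of all gene spots on that array and put on a log2 scale. Controls (1639 spots), outlier spots and 17 probes without a usable value on every array were left out, and spots of a probe were averaged. No spot was saturated. Probes well above background on at least 3 arrays were tested, and the brightest stood for its gene. Accessions of 26690 probes (64.8%) matched RefSeq, and other probes were tested under their own accession as a gene, so that 11211 of the 14853 genes had a symbol. The array design was annotated on another build, so gene coordinates are not given. Tests used limma 3.58.1 in R 4.3.3 (lmFit, eBayes, two-sided, Benjamini-Hochberg, threshold 0.05). The fit was tried on simulated data with independent noise for each gene and no slide effect. It was not tried with slide or single-array differences like those seen here. The number of arrays limits the precision. Members, lists and comparisons were chosen with earlier results of these data known. Named were all members, up to 4 genes per pathway list by smallest p, and the 6 genes of most alike profile; other genes named were added after their values were seen. H2-Eb1 was to enter that profile and had no probe. For normexp the files offered a median, not a mean, spot signal. Alternatives are in the closing section.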

Additional observations from a re-analysis of the deposited data

How the results depend on the processing

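Over 20 alternatives, of which leaving out the untreated array and using PBS alone are the same fit, limma called 0 class II members in each, and their median change stayed above 0 (0.031 to 0.58). Called genes over the whole array numbered 10, against 3 within slide 2, 1 with the replicate block, 1 with normexp and the 75th percentile, 3 with normexp and quantile, 1 without the filter on dim probes, 5 with probes well above background on all 6 arrays, 27 with array weights (0.38 to 4.34), 3 against PBS only, and 1 to 6 with 1 array left out. Same-numbered rHuEPO and PBS arrays did not deviate together (correlations -0.071 and -0.16). With so few pairs, whether the replicate numbers mark a pairing cannot be decided. The replicate block called 0 members. Signs turned for 5 of the 8 members. H2-DMa was at 0.038 with median scaling, 0.36 with normexp and the 75th percentile, 0.078 with array weights and 0.17 within slide 1. H2-DMb1 was at -0.013 with quantile normalization and -0.054 within slide 1. Leaving out 1 array gave -0.18 to 0.18 for H2-DMa, -0.0066 (without PBS replicate 1) to 0.42 for H2-Ab1, -0.21 (without PBS replicate 1) to 1.09 for H2-Ob and -0.10 (without rHuEPO replicate 1) to 0.71 for Ciita. The causes were not tested. Within slide 1, 1 array stood on each side and no test was made. The slide difference of Ciita and the list counts without PBS replicate 1 were chosen after seeing the data. With 3 arrays a group, members whose intervals reach beyond a 2-fold change either way cannot be read as steady.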
